A study of Mus musculus with 4 samples.

Results

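The matrix metalloproteinases (Mmp) and the tissue inhibitors of metalloproteinases (Timp) were followed across the liver of ob/ob mice fed 4 diets. The 10 genes were taken by symbol, namely Timp1, Timp2, Timp3, Timp4, Mmp2, Mmp9, Mmp13, Mmp14, Mmp15 and Mmp19, out of 24346 gene symbols in the deposited tables. Ob/ob mice lack leptin and become obese, and all were male and 6 weeks of age when feeding began. CD was a regular chow, CD+7KC was CD with 0.01% 7-ketocholesterol (7KC, an oxidized cholesterol), WD was a western type diet high in fat, and WD+7KC was WD with 0.01% 7KC. All 4 diets held 1% cholesterol and were given for 4 weeks, and no wild-type or leptin-competent liver was among the 4 libraries. Each group had 1 library, and how many mice stood behind it is not given in the sources used here. With nothing to measure the spread between mice, no test between conditions and no p-value could be had. Of the 10 genes, 9 were above 0 in every library and Timp4 was listed at 0 in all 4.

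Matrix metalloproteinases are zinc-dependent proteases that cut collagens, basement membrane proteins and other proteins outside the cell. They are made as inactive proenzymes, are activated by removal of the propeptide, and are blocked when a Timp protein binds the active site. In injured liver, stellate cells, macrophages and endothelial cells are known sources of these proteins, and the balance between proteases and inhibitors takes part in how scar matrix is laid down and removed. These are messenger RNA levels and give no measure of enzyme activity.

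The values are FPKM, which scale the fragments of a gene to its length and to the size of the library, so that levels can be set side by side between genes. Depth, as read from the whole-read steps of weakly expressed genes, was 9398000 to 12099000 fragments per library, and read numbers given here are estimates from it. Exact (Clopper-Pearson) 95% intervals of a ratio cover counting error between 2 libraries and say nothing of the variation between mice. A log2 fold change was computed on FPKM + 0.1, which understates the change of low genes, while ratios and intervals use no pseudocount. The hepatocyte markers Alb, Apoa1, Ttr, Serpina1a, Cyp2e1, Cps1, Ass1 and Tat summed to between 43400 and 55760 FPKM per library, and were each above 0 in all 4 libraries. In WD+7KC relative to WD, rescaling to equal sums (TPM) moved the median over all genes from 0.0021 to 0.21 on the log2 scale, so that directions near 0 in that comparison depend on the scaling.

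Positions are from GENCODE vM21 (GRCm38). Timp1 (chromosome X, 20870166 to 20874735, plus strand) lies inside Syn1, Timp3 (chromosome 10, 86300372 to 86349506, plus strand) inside Syn3 and Timp4 (chromosome 6, 115241892 to 115252205, minus strand) inside Syn2, each on the strand opposite to its synapsin gene. Whether the counting used the strand is not given in the sources used here, and reads of a gene and its antisense partner may not have been told apart. The exons of Timp1 shared no base with those of Syn1, whereas those of Timp3 and Timp4 overlapped annotated exons of Syn3 and Syn2. Syn1 ranged from 0.0305 FPKM in CD to 0.442 in WD+7KC and Syn3 from 0.305 to 0.416 FPKM, each below the Timp gene it surrounds in every library. Syn2 was at most 0.0578 FPKM. Mmp13 (chromosome 9, 7272514 to 7283331, plus strand) and Mmp14 (chromosome 14, 54431612 to 54445364, plus strand) overlap no other annotated gene. Neither do Mmp2 (chromosome 8, 92827291 to 92853420), Mmp15 (chromosome 8, 95352268 to 95375080) and Mmp9 (chromosome 2, 164940780 to 164955850). Timp2 (chromosome 11, 118301069 to 118355740) overlaps Cep295nl on the same strand, which was not analysed here. The end of Mmp19 (chromosome 10, 128790910 to 128800824) overlaps Tmem198b on the other strand, which was at 10.4 to 13.03 FPKM. Mmp19 also lies wholly inside the antisense gene Gm47093 (128789429 to 128801393), and Timp4 inside Gm17482, each on the opposite strand. Gm47093 and Gm17482 were not analysed here.

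The sequences just before the start sites of Mmp13, Timp1 and Mmp14 are shown because these genes carry the differences described next. Each is the 250 bases before the RefSeq start (GRCm38.p6), written 5′ to 3′ on the strand of the gene, and capitals mark matches to 3 motifs searched on both strands. The motifs were the AP-1 motif TGANTCA, the Ets core AGGAAG and the TATA box TATAAA.
Mmp13, chr9:7272264-7272513: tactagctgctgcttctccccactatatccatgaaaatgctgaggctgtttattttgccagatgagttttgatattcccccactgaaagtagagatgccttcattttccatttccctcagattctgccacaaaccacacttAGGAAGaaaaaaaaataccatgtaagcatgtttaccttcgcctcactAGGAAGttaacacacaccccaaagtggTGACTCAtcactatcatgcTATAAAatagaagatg
Timp1, chrX:20869916-20870165: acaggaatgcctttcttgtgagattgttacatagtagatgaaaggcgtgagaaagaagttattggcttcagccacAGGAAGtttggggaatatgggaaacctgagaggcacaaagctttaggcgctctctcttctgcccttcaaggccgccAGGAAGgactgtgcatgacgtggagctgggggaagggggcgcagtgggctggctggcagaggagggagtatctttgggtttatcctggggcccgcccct
Mmp14, chr14:54431348-54431597: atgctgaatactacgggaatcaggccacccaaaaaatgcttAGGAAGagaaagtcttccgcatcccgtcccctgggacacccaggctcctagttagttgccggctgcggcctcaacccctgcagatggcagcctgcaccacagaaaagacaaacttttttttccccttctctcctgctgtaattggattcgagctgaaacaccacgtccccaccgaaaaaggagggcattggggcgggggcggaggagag
Of the 7 members with an entry in the promoter table (Timp1, Timp2, Timp3, Timp4, Mmp13, Mmp14 and Mmp15), Mmp13 was the 1 with an AP-1 match, at 35 to 29 bases before the start, and it held 2 Ets matches and a TATA box match. Timp1 held 2 Ets matches and Mmp14 held 1. The AP-1 motif occurred in 6.75% of the 32851 promoters of the table, the Ets core in 29.5% and the TATA box in 12.4%. A match describes letters in this window and shows no binding.

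By mean FPKM over the 4 libraries, the order was Mmp19 (16.98), Mmp15 (10.35), Mmp14 (9.99), Timp3 (8.89), Timp2 (4.62), Timp1 (3.43), Mmp2 (1.84), Mmp13 (1.23) and Mmp9 (0.252). Mmp19, a secreted protease, was the most abundant member protease in CD, CD+7KC and WD, and Mmp14 was in WD+7KC. Timp3 was the most abundant inhibitor in each library. The membrane-type protease Mmp14 had an order in which all neighbours differed beyond counting error, from CD+7KC through CD and WD to WD+7KC. For Mmp9 no neighbouring libraries differed beyond counting error.

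**Figure D1:**
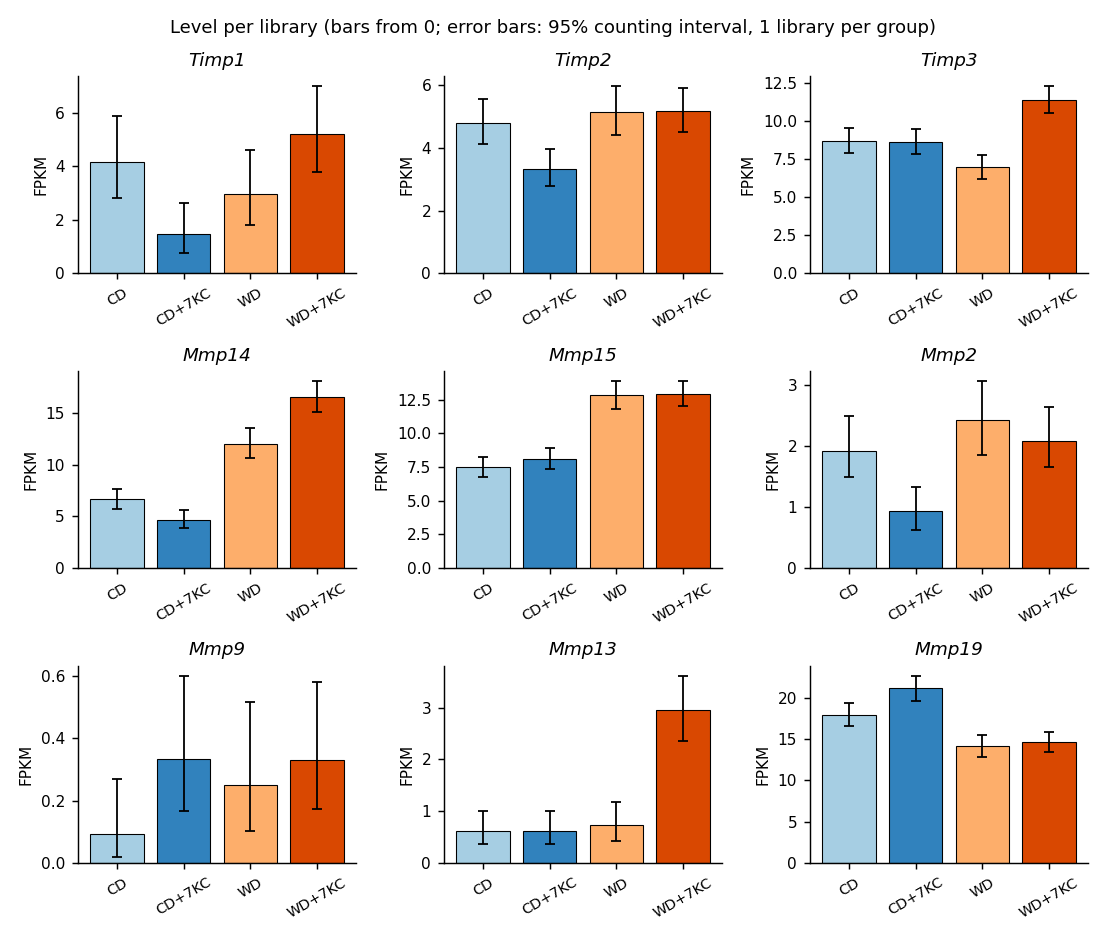
FPKM of the 9 genes above 0 in each of the 4 libraries (bars, 1 library per group), with exact 95% Poisson counting intervals as error bars. Mmp13 stands at 2.96 FPKM in WD+7KC and between 0.622 and 0.726 in the other libraries, and Timp1 has its lowest bar in CD+7KC.

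Among the inhibitors, 7KC went with opposite values of Timp1 under the diets. Timp1, a secreted inhibitor of most Mmp enzymes that is induced by inflammatory signals, measured 4.14 FPKM (CD), 1.46 (CD+7KC), 2.95 (WD) and 5.19 (WD+7KC), from an estimated 31, 11, 19 and 43 reads. CD+7KC was thus the lowest library and WD+7KC the highest. The ratio of CD+7KC to CD was 0.354 (counting interval 0.160 to 0.723), and that of WD+7KC to WD was 1.76 (1.003 to 3.19), the second with a lower limit at the edge of no difference. The log2 fold changes were -1.44 under CD and 0.79 under WD, or 1.01 under WD after rescaling to equal sums. The difference of the 7KC changes, WD minus CD, was 2.23 on the log2 scale, with an exact conditional estimate of 2.28 (0.94 to 3.72). Neighbouring libraries in the order CD+7KC, WD, CD, WD+7KC did not differ beyond counting error. Because Timp1 has 3 RefSeq mRNAs, its intervals rest on reads estimated with the transcript of 883 bases, a step added after the values had been seen, as it was for Mmp19 with 2.

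Timp2, which inhibits Mmp2 and also helps Mmp14 to activate it, measured 4.80 FPKM (CD), 3.33 (CD+7KC), 5.15 (WD) and 5.18 (WD+7KC). It was lower in CD+7KC than in the other 3 libraries, which lay close together. The ratio of CD+7KC to CD was 0.694 (0.551 to 0.875), and that of WD+7KC to WD was 1.01 (0.819 to 1.24).
Timp3, the inhibitor that stays bound to the matrix and also blocks Adam17, measured 8.65 FPKM (CD), 8.58 (CD+7KC), 6.95 (WD) and 11.4 (WD+7KC). It was highest in WD+7KC and lowest in WD. The ratio of WD+7KC to WD was 1.64 (1.42 to 1.89), and that of CD+7KC to CD was 0.992 (0.866 to 1.14). Timp4 was listed at 0, and no fold is given.

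Among the secreted proteases, Mmp13 differed most. Mmp13 encodes the main collagenase of fibrillar collagen in rodents, and it measured 0.624 FPKM (CD), 0.622 (CD+7KC), 0.726 (WD) and 2.96 (WD+7KC). The first 3 libraries held an estimated 17 reads each and WD+7KC held 88. WD+7KC stood apart and the other libraries could not be told apart. The ratio of WD+7KC to WD was 4.07 (2.37 to 7.21), a log2 fold change of 1.89, while that of CD+7KC to CD was 0.997 (0.478 to 2.08). The difference of the 7KC changes, WD minus CD, was 1.89 (conditional estimate 1.99, 0.66 to 3.36).
Mmp2, the gelatinase made mainly by stellate cells and fibroblasts, measured 1.92 FPKM (CD), 0.924 (CD+7KC), 2.42 (WD) and 2.08 (WD+7KC). It was lowest in CD+7KC, with a ratio to CD of 0.482 (0.293 to 0.749), and the ratio of WD+7KC to WD was 0.861 (0.616 to 1.24). Its log2 fold change under WD was -0.21, or 0.0010 after rescaling to equal sums.
Mmp9, the gelatinase of neutrophils and macrophages, measured 0.0916 FPKM (CD), 0.335 (CD+7KC), 0.249 (WD) and 0.331 (WD+7KC), from 3, 11, 7 and 12 reads. Its ratio of CD+7KC to CD was 3.65 with an interval of 0.965 to 20.4, so that too few reads were present to detect a difference. Mmp19 measured 17.9 FPKM (CD), 21.2 (CD+7KC), 14.1 (WD) and 14.7 (WD+7KC), higher in both CD libraries than in both WD libraries.

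Both membrane-type proteases were higher under WD. Mmp14, which sits on the cell surface, cuts collagen and activates pro-Mmp2, measured 6.64 FPKM (CD), 4.69 (CD+7KC), 12.0 (WD) and 16.6 (WD+7KC). The WD libraries lay above the CD libraries, and 7KC went with a lower value under CD and a higher value under WD. The ratios were 0.706 (0.555 to 0.893) for CD+7KC to CD and 1.38 (1.19 to 1.61) for WD+7KC to WD, and the difference of the log2 fold changes was 0.95 (conditional estimate 0.97, 0.56 to 1.38). Mmp15, its relative, measured 7.48 FPKM (CD), 8.12 (CD+7KC), 12.8 (WD) and 12.96 (WD+7KC). The ratio of WD to CD was 1.72 (1.51 to 1.95) for Mmp15 and 1.81 (1.49 to 2.21) for Mmp14, and both 7KC ratios of Mmp15 were within counting error of 1 with the deposited values. After rescaling to equal sums, the log2 fold changes of Mmp15 and Mmp19 in WD+7KC over WD were 0.23 and 0.27, with counting intervals above 0. The same rescaling put the median over all genes at 0.21, so no rise particular to Mmp15 or Mmp19 is read from these values.

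**Figure D2:**
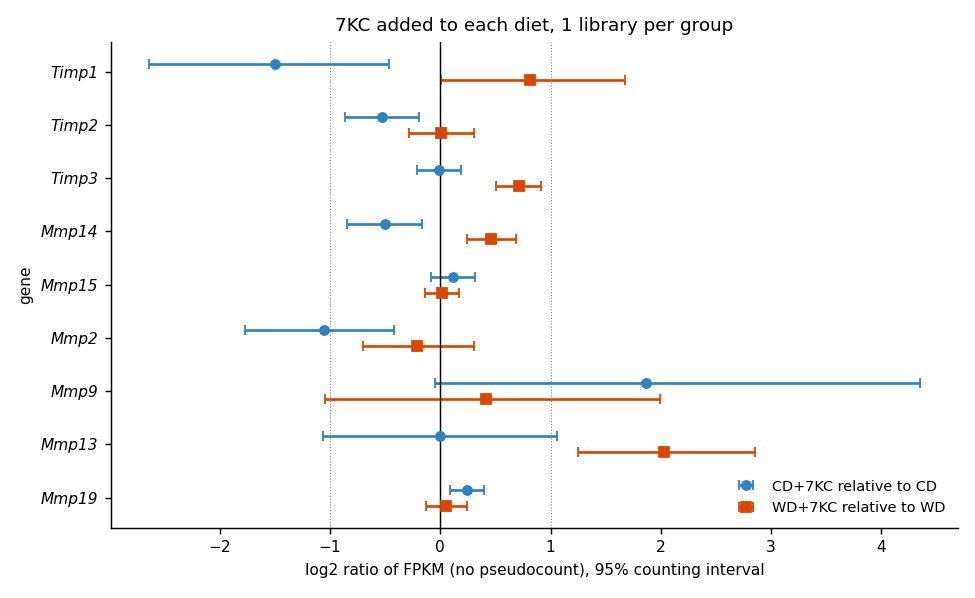
Log2 ratio of FPKM for 7KC added to CD (circles) and to WD (squares), without a pseudocount, with exact 95% counting intervals and dotted lines at a ratio of 2 in either direction. Timp1 and Mmp14 lie on opposite sides of 0 under the diets, and Mmp13 lies at 2.03 under WD and at -0.0048 under CD.

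Across all genes, 9% (1418 of 15753) were past 2-fold (a log2 fold change above 1 or below -1) in WD+7KC relative to WD (6.21% higher, 2.79% lower), and 1 of the 9 members, Mmp13, was. In CD+7KC relative to CD, 6.75% of all genes (3.84% higher, 2.91% lower) and 2 of 9 members were past it, Mmp9 higher from 3 and 11 reads and Timp1 lower. In WD relative to CD, 9.69% of all genes and 0 of 9 members were past it. In WD+7KC relative to CD+7KC, 12.6% of all genes were past it (8.01% higher) and 4 of 9 members were, namely Timp1, Mmp2, Mmp13 and Mmp14, all higher in WD+7KC. These comparisons share libraries, and a low or high library enters each comparison it is part of. The median log2 fold change of the members was 0.31 in WD+7KC relative to WD (all genes 0.0021), -0.011 in CD+7KC relative to CD (all genes -0.0012), 0.19 in WD relative to CD (all genes 0.0097) and 0.67 in WD+7KC relative to CD+7KC (all genes 0.0026). The median in CD+7KC relative to CD changed sign with the scaling, and over the 7 members of at least 1 FPKM in 1 of the libraries it was -0.49 (all such genes -0.0048).

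Counting intervals excluded a ratio of 1 for 4 of 9 members in WD+7KC relative to WD, all higher (Timp1, Timp3, Mmp13 and Mmp14). Over the 9324 single-mRNA genes with reads in that comparison the share was 30.7% (13.8% higher, 16.8% lower). In CD+7KC relative to CD, 4 members were lower (Timp1, Timp2, Mmp2 and Mmp14) and 1 was higher (Mmp19), against 23.8% of 9234 genes (11% higher, 12.8% lower). In WD relative to CD, Mmp14 and Mmp15 were higher and Timp3 and Mmp19 lower, against 35.5% of 9218 genes. In WD+7KC relative to CD+7KC, 7 members were higher and Mmp19 was lower, against 40.6% of 9376 genes. Among single-mRNA genes with at least 20 reads in both libraries together, the shares were higher. They were 37.5% (WD+7KC relative to WD), 29.2% (CD+7KC relative to CD), 43.7% (WD relative to CD) and 49.3% (WD+7KC relative to CD+7KC). The counts of members rest on 9 genes, and nothing particular to the members is read from them. The difference of the 7KC changes was above 0 for 6 of 9 members, with intervals above 0 for the 6 (Timp1, Timp2, Timp3, Mmp2, Mmp13 and Mmp14), and below 0 for Mmp9, Mmp15 and Mmp19, whose intervals included 0. Over 8885 single-mRNA genes with reads under both diets, 26.1% of these intervals excluded 0 (12% above, 14.2% below), a share computed once the values were known. The median difference was 0.71 over the members and -0.0076 over 15030 genes.

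Within a library, ratios between genes do not depend on how libraries are scaled. The 6 proteases summed to 34.7 FPKM (CD), 35.9 (CD+7KC), 42.4 (WD) and 49.6 (WD+7KC). The 4 inhibitors summed to 17.6, 13.4, 15.1 and 21.7 FPKM in the same order. The summed inhibitors were thus 0.507, 0.373, 0.355 and 0.438 of these 6 summed proteases, highest in CD. The sum leaves out Mmp12, which is not a member and stood at 2.37 FPKM (CD), 3.35 (CD+7KC), 6.29 (WD) and 17.9 (WD+7KC). In WD+7KC it was above Mmp14 (16.6 FPKM), so these ratios describe the members and not all Mmp genes. Timp1 alone was 0.119 of the summed proteases in CD and 0.0408 in CD+7KC, and 0.0695 in WD and 0.105 in WD+7KC. The make-up of the proteases also differed: Mmp19 held 51.7% of the sum in CD and 59.0% in CD+7KC but 33.3% in WD and 29.6% in WD+7KC, and Mmp14 held 19.1%, 13.1%, 28.4% and 33.5%. Mmp13 held 1.80%, 1.74%, 1.71% and 5.96%.

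**Figure D3:**
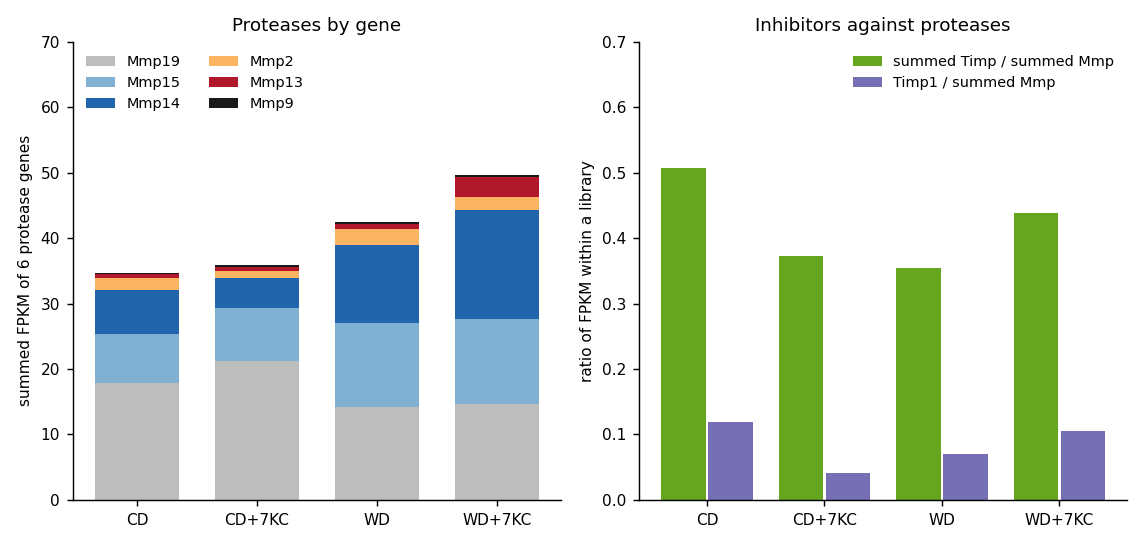
Left, FPKM of the 6 protease genes stacked for each library, from 34.7 in CD to 49.6 in WD+7KC. Right, the summed Timp genes and Timp1 alone as a ratio to the sum of these 6 Mmp genes, with the highest values of both in CD.

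The other genes of the family were read beside the members. Of 17 other Mmp genes, 10 were above 0 in at least 1 library and 7 were listed at 0 throughout (Mmp1a, Mmp1b, Mmp3, Mmp10, Mmp16, Mmp20 and Mmp21). Between WD+7KC and WD, 2 of the 10 were past 2-fold higher in WD+7KC (Mmp12 and Mmp27) and 1 lower (Mmp28, with 3 reads in WD and 0 in WD+7KC), against 6.21% and 2.79% of all genes. Mmp12, the macrophage elastase, measured 2.37 FPKM (CD), 3.35 (CD+7KC), 6.29 (WD) and 17.9 (WD+7KC). It was lowest in CD and highest in WD+7KC, and its ratio of WD+7KC to WD was 2.84 (2.42 to 3.33) from reads estimated with the longest of 3 mRNAs. Mmp1b, which overlaps its end on the other strand, was listed at 0.
Mmp13 and Mmp12 are neighbours in a cluster of 10 Mmp genes that spans 427 kb of chromosome 9 (7272514 to 7699585, GRCm38), of which 5 were above 0 in at least 1 library. Mmp27, which lies further along the cluster and was chosen after its values were seen, measured 0.125 FPKM (CD), 0.187 (CD+7KC), 0.655 (WD) and 1.81 (WD+7KC), from 2, 3, 9 and 32 reads. Its ratio of WD+7KC to WD was 2.76 (1.29 to 6.58). Mmp8 and Mmp7 of the same cluster had ratios of 0.518 and 0.778, with counting intervals that included 1. Of the 5 genes above 0, 3 were past 2-fold higher in WD+7KC relative to WD, against 6.21% of all genes. The 3 include Mmp13 and Mmp12, through which the cluster was introduced, so nothing about the cluster is read from this count. Apart from Mmp12, the genes between Mmp13 and Mmp27 were listed at 0 or, for Mmp8, had at most 3 reads.

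**Figure D4:**
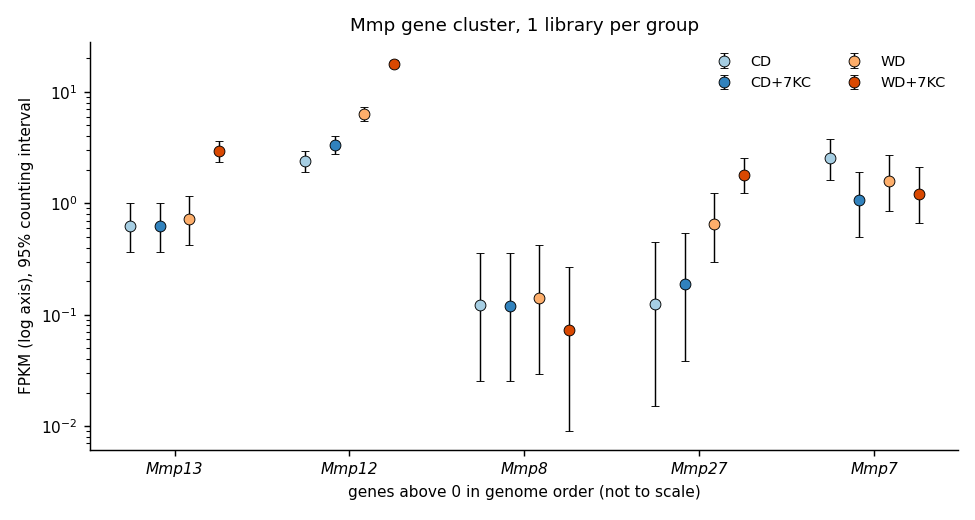
FPKM on a log axis with exact 95% Poisson counting intervals for the 5 genes above 0 of the chromosome 9 Mmp cluster, in genome order and not to scale. Mmp13, Mmp12 and Mmp27 are highest in WD+7KC, and Mmp7 is highest in CD.

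Genes that act on or with the members gave the following counts in WD+7KC relative to WD. Among all genes, 6.21% were past 2-fold higher and 2.79% lower in that comparison. Of 8 genes of pro-Mmp activation and the plasmin system, none was past 2-fold and the median was 0.022. Plau, the urokinase that turns plasminogen into plasmin, had the highest log2 fold change (0.89), with 1.68 FPKM in WD and 3.18 in WD+7KC, a ratio of 1.90 (1.26 to 2.92), and Plg, plasminogen itself, the lowest (-0.41), with 480.4 and 361.2 FPKM. Of 10 Adam and Adamts proteases, 3 were past 2-fold higher (Adam8, Adam15 and Adamts4, of which Adam8 and Adamts4 were named after their values were seen), with Adam15 at 1.18 FPKM in WD and 2.77 in WD+7KC. Of 11 inducers and AP-1 factors with values, 2 were past 2-fold higher. Tgfb1, which encodes the main profibrotic cytokine, was at 3.97 FPKM in WD and 9.38 in WD+7KC, a ratio of 2.37 (1.80 to 3.10). Osm was listed at 0 in WD and at 0.145 FPKM in WD+7KC, from 0 and 4 reads, with a counting interval that included 1. Ctgf had the lowest log2 fold change (-0.74), with 14.45 FPKM in WD and 8.59 in WD+7KC. Of the 11 genes, 9 were higher and 2 lower. Il6 was listed at 0 in all 4 libraries. The paper, by quantitative PCR in ob/ob mice, reported a significant Il6 rise in WD+7KC over WD, so a listed 0 does not show absence. Of 6 other inhibitors and binding partners, none was past 2-fold.
Of 18 matrix substrate genes, 17 had lower values in CD+7KC than in CD (median -0.36), with Col1a1 past 2-fold lower at 8.23 FPKM in CD and 3.40 in CD+7KC, while 14 of 18 were higher in WD+7KC than in WD (median 0.30), with Hspg2 past 2-fold higher. After rescaling to equal sums, 17 were lower under CD and 18 higher under WD, where the median over all genes was 0.21. The comparisons share no library, and 2.91% of all genes were past 2-fold lower in CD+7KC relative to CD. By quantitative PCR in ob/ob mice, the paper reported no significant change in fibrosis genes, and its primers covered Tgfb, Col1a1 and Col1a2.

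Likeness of pattern was measured as the Euclidean distance between log2(FPKM + 0.1) profiles over the 4 libraries, each centred on its mean, among 96 other genes of the fixed lists with a mean of at least 1 FPKM. The nearest to Timp1 were Col1a1 (distance 0.395) and Mmp23 (0.436), to Mmp2 Col1a2 (0.212) and Des (0.299), and to Timp2 Pdgfrb (0.105) and Bgn (0.105). The first named for these 3 members were collagen genes and the stellate cell marker Pdgfrb. The pool held 18 matrix substrate genes and 10 stellate cell and fibroblast markers, so its make-up favours such matches. Mmp14 was nearest to Nid1 (0.191) and Plaur (0.398), and Mmp13 to Tgfb1 (0.495) and Adgre1 (0.661). Timp3 was nearest to Il1b and Fosl2, Mmp15 to Lrat and Col6a1, and Mmp19 to Jun and Tat. With 4 libraries, between 2 genes (Mmp2) and 289 genes (Mmp19) of the whole table lay nearer than the first named, and likeness shows no shared control.

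Cell type markers differed between the same libraries. For comparison, 6.21% of all genes were past 2-fold higher in WD+7KC relative to WD. Of 12 macrophage and Kupffer cell markers, 12 were higher in WD+7KC than in WD and 12 higher in CD+7KC than in CD, and their summed FPKM was 230.7 (CD), 349.3 (CD+7KC), 395.8 (WD) and 743.4 (WD+7KC). Adgre1, which encodes F4/80, had a ratio of WD+7KC to WD of 2.97 (2.46 to 3.58). Of 8 endothelial markers, 8 were past 2-fold higher in WD+7KC than in WD, and the sums were 65.4, 94.4, 51.5 and 147.8 FPKM in the order CD, CD+7KC, WD, WD+7KC. The 10 stellate cell and fibroblast markers summed to 131.7, 119.2, 130.8 and 134.9 FPKM, with 7 of 10 lower in CD+7KC than in CD and 0 past 2-fold. Ecm1 (51.5 to 58.1 FPKM) and Colec11 (31.9 to 36.8) made up most of that sum in each library, so it says little of the others. In CD+7KC relative to CD the median log2 fold change of the 10 was -0.30, from -0.72 (Des) to 0.26 (Rgs5). Hepatocyte markers were lower in WD+7KC than in WD for 8 of 8 genes, and for 5 of 8 after rescaling to equal sums. Neutrophil markers summed to 15.3 to 21.5 FPKM, with Mpo listed at 0 in all 4 libraries and Ly6g not analysed here. The 6 cholangiocyte markers ranged from 46.5 to 185.9 FPKM summed, nearly all of it Spp1, which macrophages also express. Krt19 ranged from 0.63 to 1.09 FPKM, Epcam from 0.73 to 1.06, Krt7 from 0.46 to 0.66 and Sox9 from 0.40 to 1.01. Cftr was at most 0.0149 FPKM. Of these markers, 6 of 6 were lower in CD+7KC than in CD, and 4 of 5 with values were higher in WD+7KC than in WD. The mesothelial markers Msln, Upk3b and Upk1b were at most 0.644 FPKM but were all 3 past 2-fold higher in WD+7KC than in WD, with 15 reads against 1 for Msln, 7 against 0 for Upk3b and 4 against 0 for Upk1b, and their part in the results was not tested. The fat cell markers Adipoq and Plin1 were at most 0.0885 FPKM, and Fabp4 ranged from 66.5 to 142.7 FPKM. In whole liver, fewer cells of a type and less RNA per cell cannot be told apart. The ratio of WD+7KC to WD was 4.07 for Mmp13, 1.88 for the macrophage sum and 2.87 for the endothelial sum, and the part of these cells in the values of Mmp13, Timp1, Timp3 and Mmp14 was not tested.

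**Figure D5:**
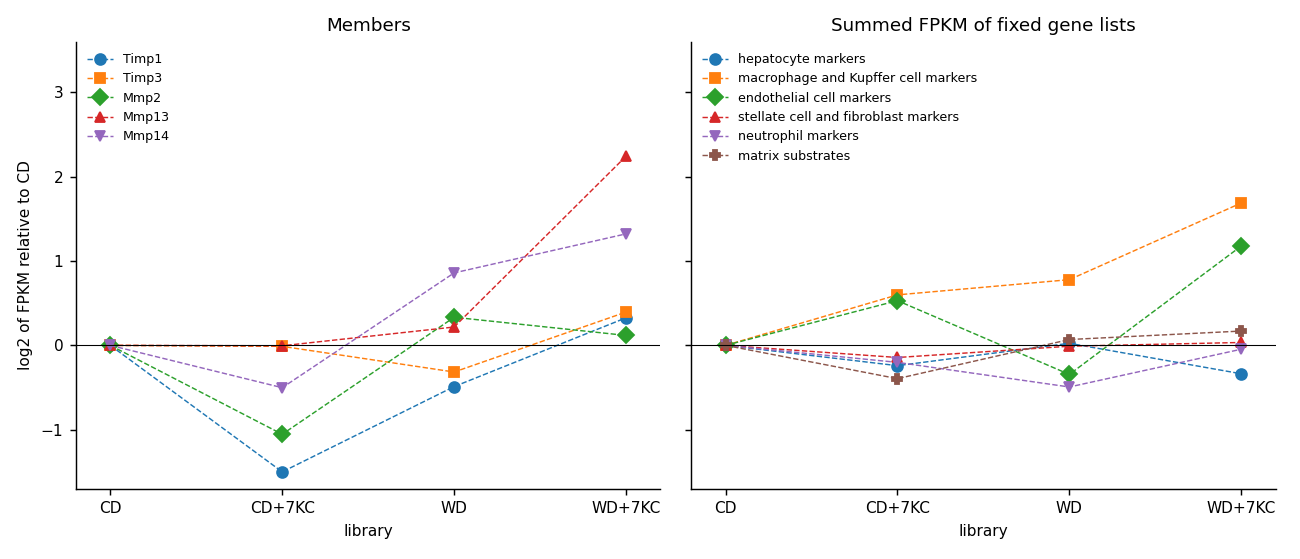
Log2 of FPKM relative to CD in the 4 libraries for 5 members (left) and for summed marker and matrix lists (right), where dashed lines only join the points of an item. Mmp13 stands at 2.24 in WD+7KC, the macrophage sum at 1.69 and the endothelial sum at 1.18. The stellate cell sum, made up mostly of Ecm1 and Colec11, stays between -0.14 and 0.034.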

How the data were processed

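Liver RNA was sequenced by the authors from stranded mRNA libraries with single-end reads of 75 bases. Reads were mapped to mm10 with TopHat2 2.0.13, Bowtie2 2.2.3 and SAMtools 0.1.19, and Cufflinks 2.2.1 gave the FPKM values that the authors deposited, 1 for each gene symbol in each library. Tool versions come from the submitters' processing notes. The annotation, the Cufflinks options and the use of strand in counting are not given in the sources used here. FPKM scales each library to its mapped fragments, so that a few abundant genes can shift all others.

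From these values, log2 fold changes of FPKM + 0.1 were computed for genes above 0 in at least 1 of the 2 libraries, with 2-fold as threshold. Library depth (10956000, 10993000, 9398000 and 12099000 fragments for CD, CD+7KC, WD and WD+7KC) was read from whole-read steps in weakly expressed genes, over 14058 that have only 1 RefSeq mRNA, after taking 200 bases off the transcript length, and 70.7% to 72.2% of their low values lay within 0.1 of a whole read. Intervals cover counting error only. No test between conditions was possible with 1 library per group. Members and gene lists were chosen with earlier results of these data known. The genes named were the members, the synapsin genes, Mmp12, the 2 nearest patterns per member and further genes of the lists. Not every extreme or gene past 2-fold (mean of at least 1 FPKM) of a list was named. Some, such as Mmp27, Adam8 and Adamts4, were named after their values were seen. The alternatives were other pseudocounts (1, 0.01 or none), a filter of 1 FPKM, 4 rescalings, thresholds of 1.5-fold and of 2 on the log2 scale, and protease sums without Mmp15 or Mmp19. Code was tested on simulated data. Python 3.11.15, numpy 2.4.6, pandas 2.3.3, scipy 1.17.1 and matplotlib 3.10.9 were used. Promoters came from RefSeq (GRCm38.p6).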

Additional observations from a re-analysis of the deposited data

Results flagged for a closer look

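The 7KC change of Timp1 had opposite signs under the diets, 0.79 under WD and -1.44 under CD on the log2 scale, with the deposited values and with each of the 4 rescalings (0.796 to 1.01 under WD and -1.44 to -1.40 under CD). The same held for Mmp14, at 0.46 under WD and -0.49 under CD. Both were singled out because the opposite signs held, at a size above 0.1, in each of these scalings. Timp2, Timp3 and Mmp13 also had opposite signs with the deposited values, but with a value within 0.1 of 0 under 1 of the diets. With 1 library per group, the differences were not tested against the variation between mice.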

How the results depend on the processing

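No paired analysis was possible because each group had 1 library, and no library could be left out. Of 282 alternative values of single members, 270 lay inside the counting interval and 12 outside it, and no member past 2-fold changed sign. The median of the members in CD+7KC relative to CD was -0.011 and became 0.028 after rescaling to equal sums, 0.023 with upper quartile scaling and 0.003 with equal sums without the top 20 genes, where all genes shift too, and it was -0.493 among genes of at least 1 FPKM. Between WD+7KC and WD the median was 0.093 with a pseudocount of 1, 0.415 with none, 0.472 after rescaling to equal sums and 0.441 without the top 20 genes. In WD+7KC relative to CD+7KC it was 0.880 among genes of at least 1 FPKM, 0.876 after rescaling and 0.861 without the top 20 genes, and in WD relative to CD it was 0.088 with a pseudocount of 1. The median difference of the 7KC changes was 0.452 with a pseudocount of 1, 0.889 after rescaling and 0.873 without the top 20 genes. Members past 2-fold in CD+7KC relative to CD numbered 1 with a pseudocount of 1 and 1 among genes of at least 1 FPKM, since Mmp9 left the count, and 3 with a pseudocount of 0.01 or none, since Mmp2 (ratio 0.482) entered it. In WD relative to CD they numbered 1 with a pseudocount of 0.01 and 1 with none. Between WD+7KC and WD they numbered 2 after rescaling, as Timp1 passed 1. With a threshold of 1.5-fold they numbered 3 in WD+7KC relative to WD and 3 in WD relative to CD, and with a threshold of 2 they numbered 0 in WD+7KC relative to WD, 0 in CD+7KC relative to CD and 1 in WD+7KC relative to CD+7KC. The log2 change of the ratio of Timp1 to the summed proteases was -1.55 in CD+7KC relative to CD and -1.31 in a sum without Mmp19. The cause of the other shifts was not tested. Mmp9, with 3 to 12 reads per library, could not show a difference of the size measured.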

Other observations

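Cd63, which encodes a membrane protein that binds Timp1 on the cell surface, measured 26.2 FPKM (CD), 17.9 (CD+7KC), 127.0 (WD) and 120.2 (WD+7KC). Both WD libraries lay above both CD libraries, and the ratio of WD to CD was 4.84 (exact counting interval 4.22 to 5.59, from reads estimated with the longest of 3 mRNAs), while Timp1 itself was at a ratio of 0.713 (0.381 to 1.31). Mmp23, the second nearest pattern to Timp1, was at 1.85, 0.442, 0.859 and 1.60 FPKM in the order CD, CD+7KC, WD, WD+7KC, with CD+7KC at a ratio of 0.239 to CD (0.0803 to 0.597). Each rests on 1 library per group.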
